A study of Mus musculus and Homo sapiens with 30 samples.

Results

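The genes described here are the ERBB receptor tyrosine kinases, their EGF-family ligands and the receptor inhibitor Errfi1, chosen by name. They were 10 of 56980 gene IDs in the mouse table (Egfr, Erbb2, Erbb3, Areg, Ereg, Hbegf, Tgfa, Btc, Nrg1 and Errfi1) and 6 of 61552 in the human table (EGFR, ERBB2, ERBB3, AREG, HBEGF and TGFA). Poly(A) RNA was sequenced in 30 libraries of 3 cell lines in 3 media. SkBr3 is derived from a human breast cancer and carries an amplified ERBB2 gene, E0771 comes from a mouse mammary tumour and NMuMG from the epithelium of normal mouse mammary gland, although the labels list all 3 under breast cancer. The control groups stayed in standard growth medium, and the others were treated for 16 h with a mixture of which 50% was secretome (medium conditioned by cells) of inguinal adipocytes, called lean or obese in the labels with no species given, and growth medium made up the rest. Lean and obese groups therefore received equal shares of secretome and the controls none. A growth time of 36 h was listed for every library. E0771 and SkBr3 grew in DMEM with 10% FBS. NMuMG medium also held insulin at 10 mcg/ml and glucose at 4.5 g/L, in every group. There were 4 libraries per group in SkBr3 and 3 in each mouse line. The labels do not say whether these were separate cultures, so the p-values measure the spread between these libraries, and each line stands for 1 culture model rather than for a tumour type.

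ERBB receptors are membrane kinases that pair with each other when a ligand binds. Areg, Tgfa and Egf bind Egfr, while Ereg, Hbegf and Btc can also bind Erbb4 and Nrg1 binds Erbb3 and Erbb4. Erbb2 has no known ligand and acts as a partner of the others, and Erbb3 has little kinase activity of its own. The ligands are made as membrane precursors that proteases release, and several ligand genes as well as Errfi1, which blocks the Egfr kinase, are induced when the receptor signals. Amphiregulin, the product of Areg, is the ligand that the pubertal mammary gland needs for duct growth, and ERBB2 is the gene amplified in HER2-positive breast cancer.

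Proximal promoters are shown for the ligands Areg and Btc, which rose with lean secretome in both mouse lines, for the inhibitor Errfi1 and for the receptor Erbb2. The letters are the 130 bases before the start that RefSeq annotates on GRCm38.p6, and 6 of the 10 mouse members were matched in the promoter table (Egfr, Erbb2, Areg, Btc, Tgfa and Errfi1, with 7 starts). Capitals mark a cAMP response element (TGACGTCA, bound by CREB-type factors) or a TATA box (TATAAA).
Areg, chr5:91139469-91139598, plus strand: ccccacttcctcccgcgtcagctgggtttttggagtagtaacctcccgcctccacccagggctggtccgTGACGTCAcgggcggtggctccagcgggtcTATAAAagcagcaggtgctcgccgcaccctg
Errfi1, start 2, chr4:150854940-150855069, plus strand: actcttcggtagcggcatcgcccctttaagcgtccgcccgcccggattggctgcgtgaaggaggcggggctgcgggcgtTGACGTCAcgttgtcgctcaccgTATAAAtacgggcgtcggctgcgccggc
Btc, chr5:91402995-91403124, minus strand: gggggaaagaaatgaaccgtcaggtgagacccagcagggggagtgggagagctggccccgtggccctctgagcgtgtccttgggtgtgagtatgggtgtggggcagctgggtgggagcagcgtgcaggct
Erbb2, chr11:98412354-98412483, plus strand: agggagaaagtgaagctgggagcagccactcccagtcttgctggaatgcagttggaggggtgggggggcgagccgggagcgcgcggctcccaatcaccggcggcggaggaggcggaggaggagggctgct

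Of the 7 starts, only that of Areg and start 2 of Errfi1 held the cAMP response element or the TATA box, and start 1 of Errfi1 matched neither. Areg and start 2 of Errfi1 held both in the same order, the cAMP response element 61 and 51 bp and the TATA box 31 and 28 bp before the start. The bases just after both Errfi1 starts and the Tgfa start were found in no GENCODE M21 transcript of the gene. Those of Areg, Btc, Egfr and Erbb2 were found, so the Errfi1 distances rest on the RefSeq start alone. Both strands of the 250 bases before each start were searched. The cAMP response element was found in 1.55% of 32851 annotated promoters and the TATA box in 12.4%. The AP-1 site (TGANTCA, 6.75% of promoters) and the antioxidant response element (TGACNNNGC, 10.2%) matched none of the 7 member starts. The 4 motifs were chosen with the expression results in view, and a match is a description of the letters only. In the RefSeq order of protein-coding genes the ligand genes Epgn, Ereg, Areg and Btc stand next to each other on mouse chromosome 5.

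Library totals ranged from 22929035 to 31094119 counts in the mouse lines and from 18479433 to 29195499 in SkBr3, and levels are given as CPM (counts scaled to library size, with TMM factors). Median log2 fold changes over all genes lay between -0.08 and 0.03 in the comparisons below, and the values were not recentred. TMM factors themselves bring most genes near 0, so these medians cannot show whether most genes shifted together. NMuMG carried epithelial keratins and E-cadherin (Krt8 at 3434 CPM, Krt18 at 2515 and Cdh1 at 541 in control medium), with Vim, a mesenchymal filament, at 1776. Of the 10 epithelial markers, Cldn3, Cldn7 and Esrp1 were at 0 in its control libraries, and Epcam (2.18 CPM) and Cldn4 (0.916) were low. E0771 had Krt8 at 255 CPM but Krt18 and Krt19 at 0, Cdh1 at 0.143 and Epcam at 0.0813, beside Vim at 3040 and the collagen gene Col1a1 at 687. Of the 8 mesenchymal or fibroblast markers, Col1a2 (0.263 CPM), Dcn (0.0125) and Thy1 (0) were at or near 0 in E0771 controls. Of the 10 epithelial markers only Krt8 passed the filter on low counts in E0771, which goes against an epithelial label for this line. Of the 8 adipocyte markers Lep was at 0 in all mouse libraries, and their summed level was at most 1.65 CPM in E0771 and 2.23 in NMuMG. The 5 leukocyte markers summed to at most 5.76 CPM in E0771 and 4.16 in NMuMG. In bulk RNA, fewer cells of a type and less RNA per cell cannot be told apart.

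In control medium the 2 mouse lines held very different sets of ligands. E0771 had lower levels than NMuMG for 7 of the 8 members tested in both lines, with log2 differences (standard error, SE) of -4.38 (0.08) for Egfr, -5.60 (0.12) for Areg, -5.24 (0.15) for Btc, -3.88 (0.07) for Hbegf, -1.55 (0.10) for Ereg, -1.54 (0.06) for Errfi1 and -0.58 (0.05) for Erbb2. The largest adjusted p among these 7 was 4.81e-12. Egfr was thus 20.9-fold, Areg 48.6-fold and Btc 37.7-fold lower in E0771. Erbb3 was close in both lines, with a log2 difference of -0.18 (95% interval -0.41 to 0.05, adjusted p = 0.136), although leaving out NMuMG control replicate 3 gave -0.27 (adjusted p = 0.0458). Of all genes tested, 80.5% passed in this comparison, so most genes differed between these lines, and the line cannot be told apart from the insulin and glucose in its medium.

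Tgfa and Nrg1 separated the lines completely. Tgfa had 0 counts in all 9 E0771 libraries and 2174 to 2528 counts in each NMuMG control library. With a floor of 3 counts over the control group it was lower in E0771 by about 2144-fold or more. Nrg1, the ligand of Erbb3, had 0 counts in the E0771 control and obese libraries and 1982 to 2284 in the NMuMG controls. By the same floor it was lower in E0771 controls by about 1966-fold or more.

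Per kb of annotated exon, Erbb2 was the highest member in E0771 controls at 11.7 ± 0.510 CPM per kb (SD, n = 3), above Errfi1 at 7.42 and Ereg at 3.37. Erbb3 (1.29) and Hbegf (1.26) overlapped, and Areg (0.780), Egfr (0.459) and Btc (0.172) lay below them with no overlap between neighbours. The order in NMuMG began with Areg at 35.1 ± 0.980 CPM per kb, Errfi1 at 19.8 and then Hbegf (17.0) and Erbb2 (16.0), whose libraries overlapped. Tgfa followed at 12.9, Ereg (9.05) and Egfr (8.79) overlapped, and Nrg1 (7.42), Btc (5.83) and Erbb3 (1.34) came last. The lengths are from GENCODE M21 rather than the annotation used for counting, so this order holds only for those lengths.

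**Figure D1:**
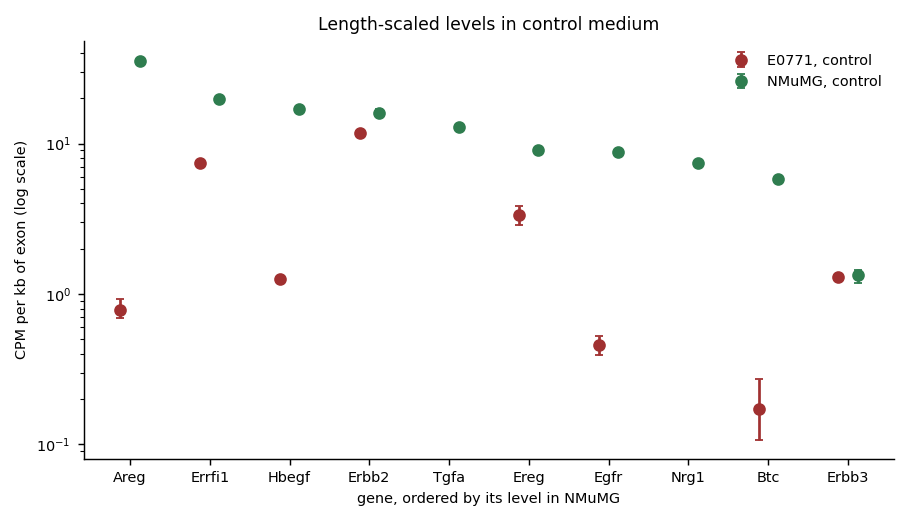
Length-scaled level (CPM per kb of exon, log axis) of each member in control medium, with points at the mean of 3 libraries and bars from the lowest to the highest library. E0771 lies below NMuMG for Areg, Errfi1, Hbegf, Erbb2, Ereg, Egfr and Btc, the lines meet at Erbb3, and Tgfa and Nrg1 have no E0771 point because all counts were 0. TMM factors were computed within each line.

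Lean secretome raised Areg, Ereg, Hbegf and Btc in E0771, 4 of the 6 ligands. Of the 8 members tested, 6 passed between lean and obese secretome, 5 higher and 1 lower with lean, where 52.7% of all genes passed (25.8% higher and 26.9% lower). Against control medium 6 of 8 passed, again 5 higher and 1 lower, with 56.3% of all genes passing (27.3% higher and 29.0% lower). Over the 8 the median log2 change was 0.69 for lean over obese and 0.67 for lean over control, beside 0.00 and -0.01 over all genes. A large part of the E0771 transcriptome thus moved with lean secretome, and the members' counts have to be read beside that.

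Areg in E0771 was at 0.842, 1.12 and 0.876 CPM in control, at 1.42, 1.65 and 1.59 in obese and at 5.14, 5.36 and 3.86 in lean secretome. Every lean library was above every other library, and lean exceeded obese by 1.62 on the log2 scale (SE 0.19, 3.06-fold, adjusted p = 8.96e-08). Over control it was 2.32 (SE 0.20, 5.01-fold, adjusted p = 7.92e-10). These levels rest on 20 to 30 counts per control library and 121 to 148 per lean library.

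Btc, which encodes betacellulin, stood at 0.622, 0.487 and 1.23 CPM in control, at 1.38, 1.06 and 1.24 in obese and at 4.97, 3.77 and 3.54 in lean secretome. The 3 lean libraries did not overlap the others, and the log2 fold changes were 1.73 over obese (SE 0.23, 3.32-fold, adjusted p = 8.86e-07) and 2.42 over control (SE 0.25, 5.35-fold). Control replicate 3 was the highest control and lay among the obese libraries. Btc had the widest relative spread of the tested members there, 13 to 28 counts in the control libraries.

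Ereg, the epiregulin gene and the most abundant ligand of E0771 per kb, was at 11.9, 15.9 and 14.0 CPM in control, 15.6, 11.6 and 12.7 in obese and 27.9, 26.0 and 28.6 in lean secretome. Control and obese libraries mixed, while lean stood apart at 2.07-fold of obese (log2 1.05, SE 0.10, adjusted p = 3.53e-08) and 1.98-fold of control. Hbegf, whose product is shed as a heparin-binding ligand, showed the same arrangement at 6.15, 6.11 and 6.00 CPM in control, 5.55, 5.19 and 6.77 in obese and 12.4, 12.1 and 13.3 in lean secretome. Its log2 fold change was 1.11 over obese (SE 0.11, adjusted p = 5.46e-09) and 1.05 over control (SE 0.11, adjusted p = 9.38e-09).

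The remaining ligands of E0771 were near or at 0. Nrg1 had 4 counts in each of the 3 lean libraries and none in the other 6. With a floor of 3 counts over the group, lean was 3.54-fold of control and 3.64-fold of obese. These ratios take the 12 lean counts as they stand, so they are not lower bounds, and Nrg1 was too low to test. Tgfa was not detected in any medium.

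None of the receptors of E0771 passed upward. Erbb2 was at 60.6, 63.5 and 58.2 CPM in control and 57.6, 63.0 and 62.0 in obese, against 46.7, 46.7 and 47.2 in lean secretome. It fell by 0.38 on the log2 scale against obese (SE 0.05, adjusted p = 1.48e-06) and by 0.37 against control (SE 0.05, adjusted p = 1.35e-06). Egfr was at 4.43, 5.96 and 5.21 CPM in control, 6.02, 4.25 and 3.68 in obese and 5.25, 5.47 and 4.98 in lean. These groups overlapped, and lean over obese was 0.17 (95% interval -0.15 to 0.50, adjusted p = 0.370). Without obese replicate 1, the highest obese library, that value was 0.40 (adjusted p = 0.0404). Erbb3 overlapped in all media, with means of 7.77 CPM in control, 7.80 in obese and 7.34 in lean (lean over obese -0.09, 95% interval -0.34 to 0.16, adjusted p = 0.556).

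Errfi1, the inhibitor, rose in E0771 as well. It was at 26.0, 27.9 and 25.9 CPM in control, 26.7, 27.5 and 26.7 in obese and 31.8, 31.8 and 37.8 in lean secretome. All lean libraries were above all others, replicate 3 the highest, and the log2 fold change was 0.33 over obese (SE 0.07, adjusted p = 0.000305) and 0.35 over control (SE 0.07, adjusted p = 0.000149).

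Mesenchymal markers moved in the same libraries. Their summed level over 8 genes, mostly from Vim and Col1a1, was 2349 to 2584 CPM with lean secretome, 3515 to 3826 with obese and 3959 to 4095 in control. Of the 5 tested, 4 were called lower with lean than with obese, where 26.9% of all genes were lower. The summed epithelial markers were 243 to 245 CPM with lean, 229 to 242 with obese and 249 to 260 in control, nearly all from Krt8, so that lean lay between the other media. The part of these shifts in the ligand changes was not tested.

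**Figure D2:**
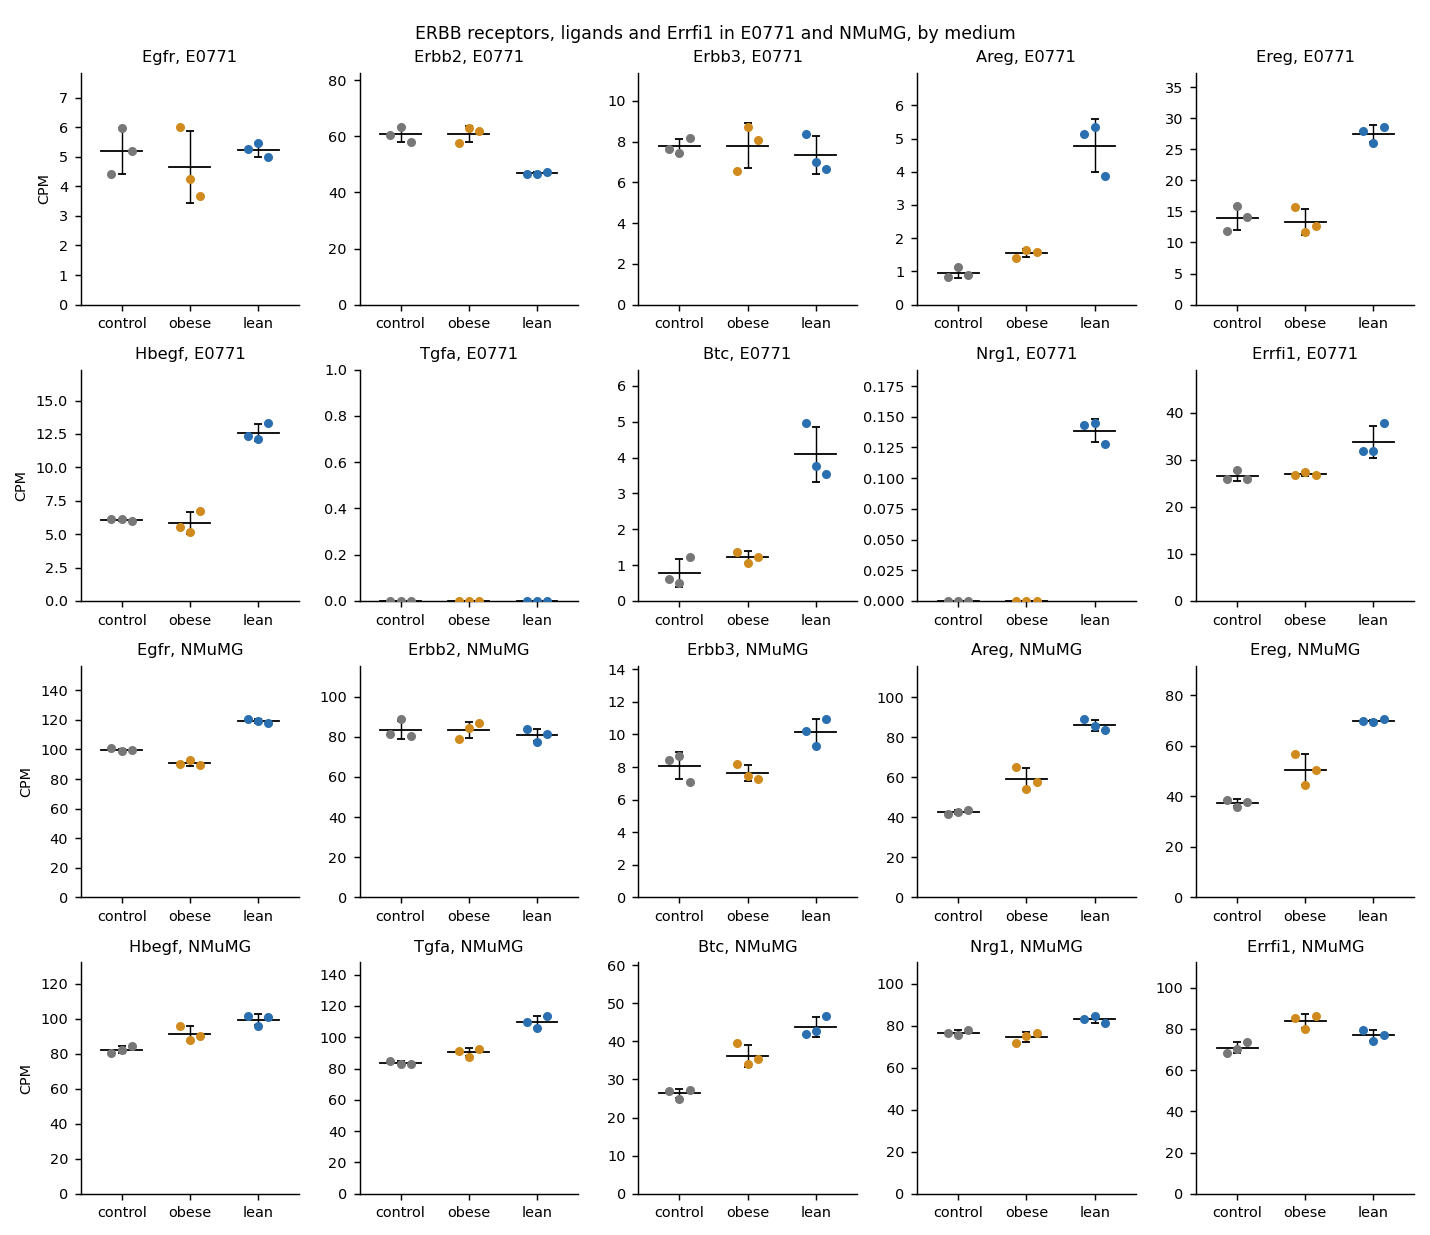
CPM of each mouse member in each library of E0771 (upper rows) and NMuMG (lower rows) by medium, with the mean as a line and the SD as error bars (n = 3). In E0771 the lean libraries stand above the rest for Areg, Ereg, Hbegf, Btc and Errfi1 and below them for Erbb2. In NMuMG Areg, Ereg and Btc climb from control to obese to lean, and Errfi1 is highest with obese secretome. The scale differs between panels.

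In NMuMG ligands, Egfr and Erbb3 rose with lean secretome. Of the 10 members, all tested, 9 passed between lean and obese, 8 higher and 1 lower with lean, where 35.0% of all genes passed (17.6% higher and 17.4% lower). Against control medium 9 of 10 passed, all higher, beside 38.2% of all genes (19.1% higher and 19.1% lower). The median log2 fold change of the 10 was 0.28 over obese and 0.30 over control, beside 0.00 for all genes in both.

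Areg was at 41.4, 42.7 and 43.8 CPM in control, 64.9, 54.2 and 57.9 in obese and 88.9, 85.5 and 83.7 in lean secretome. The 3 media did not overlap, and lean was above obese by 0.55 on the log2 scale (SE 0.05, 1.46-fold, adjusted p = 2.77e-10) and above control by 1.01 (SE 0.05, 2.02-fold, adjusted p = 1.77e-16). Obese was itself above control by 0.47 (SE 0.05, adjusted p = 3.04e-07). Areg thus stood in the order control, obese, lean, each step beyond the spread.

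Ereg had the same order, at 38.7, 35.9 and 37.6 CPM in control, 56.7, 44.3 and 50.4 in obese and 69.7, 69.4 and 70.4 in lean. Its log2 fold changes were 0.47 for lean over obese (SE 0.06, adjusted p = 7.37e-07), 0.90 for lean over control (SE 0.06) and 0.43 for obese over control (SE 0.06, adjusted p = 6.93e-05). Btc was at 26.9, 25.0 and 27.1 CPM in control, 39.4, 33.9 and 35.4 in obese and 41.9, 42.8 and 46.7 in lean. Here the first step was the larger one, 0.46 for obese over control (SE 0.06, adjusted p = 4.43e-06) and 0.27 for lean over obese (SE 0.06, adjusted p = 0.000352). For these 3 neighbouring genes the obese library nearest to lean was always replicate 1.

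Tgfa, silent in E0771, was at 84.9, 83.1 and 83.1 CPM in NMuMG control, 91.2, 87.4 and 92.2 in obese and 109.7, 106.0 and 113.7 in lean. Lean was higher than obese by 0.28 (SE 0.04, adjusted p = 6.50e-07) and than control by 0.39 (SE 0.04, adjusted p = 5.43e-10), while obese over control was 0.11 (adjusted p = 0.118) with no overlap between the libraries.

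Hbegf and Nrg1 had the smallest changes among the ligands with lean secretome, over obese or over control. Hbegf was at 80.5, 82.1 and 84.3 CPM in control, 96.1, 87.9 and 90.1 in obese and 101.7, 95.7 and 101.0 in lean. Lean was above control by 0.27 (SE 0.04, adjusted p = 1.86e-06), but lean and obese overlapped at a log2 difference of 0.12 (SE 0.04, adjusted p = 0.0195). That call was lost without any 1 of lean replicates 1 and 3 and obese replicates 2 and 3 (adjusted p = 0.0552 to 0.114). Nrg1 was at 76.7, 75.7 and 77.8 CPM in control, 71.9, 75.3 and 76.4 in obese and 83.2, 84.8 and 81.6 in lean, 0.16 above obese (SE 0.04, adjusted p = 0.00263). Its 0.12 over control (adjusted p = 0.0229) was lost without control replicate 1 or 2 or lean replicate 1 or 2 (adjusted p = 0.0581 to 0.0999).

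Among the NMuMG receptors, Egfr moved in both directions. It was at 100.6, 98.9 and 99.3 CPM in control, 90.0, 92.5 and 89.4 in obese and 120.3, 119.3 and 117.9 in lean secretome. No groups overlapped, and lean was above obese by 0.39 on the log2 scale (SE 0.04, adjusted p = 2.43e-10) and above control by 0.26 (SE 0.04, adjusted p = 5.96e-07). With obese secretome it fell by 0.14 against control (SE 0.04, adjusted p = 0.0258), a call lost without control replicate 1 or 3 or obese replicate 1 or 3 (adjusted p = 0.0690 to 0.127).

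Erbb3 was at 8.46, 8.67 and 7.11 CPM in control, 8.21, 7.45 and 7.29 in obese and 10.2, 9.28 and 10.9 in lean. It rose by 0.41 over obese (SE 0.10, adjusted p = 0.00179) and by 0.33 over control (SE 0.10, adjusted p = 0.00840), the latter lost without control replicate 3 (0.24, adjusted p = 0.0811) or lean replicate 3 (0.27, adjusted p = 0.0524). Erbb2 was the 1 member that passed in none of the 3 NMuMG comparisons, at means of 83.5 CPM in control, 83.5 in obese and 80.9 in lean, with lean over obese at -0.05 (95% interval -0.14 to 0.05, adjusted p = 0.471).

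Errfi1 was highest with obese secretome in NMuMG. It was at 68.4, 70.2 and 73.8 CPM in control, 85.1, 80.1 and 86.3 in obese and 79.2, 74.0 and 77.2 in lean. Obese was above control by 0.24 (SE 0.04, adjusted p = 0.000378). Lean was below obese by a log2 value of -0.13 (SE 0.04, adjusted p = 0.0220) and above control by 0.12 (SE 0.04, adjusted p = 0.0314). The first of these was lost without lean replicate 2 (adjusted p = 0.110), obese replicate 1 (0.0644) or obese replicate 3 (0.128), and the second without control replicate 1 (0.181), control replicate 2 (0.0729), lean replicate 1 (0.152) or lean replicate 3 (0.0642).

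Summed epithelial markers also stood higher with lean secretome in NMuMG, at 7914 to 8134 CPM against 6850 to 7224 with obese and 7177 to 7612 in control. The sum came mostly from Krt8 and Krt18. With lean, 5 of the 7 tested were called higher than with obese (17.6% of all genes) and 3 higher than in control (19.1% of all genes). Mean Krt7 was lower with lean than with obese (108 against 114 CPM), and mean Cdh1 lower than in control (522 against 541). Summed adipocyte markers were 2.14 to 2.23 CPM with lean against 0.414 to 1.10 with obese, mostly from Cidec, a lipid droplet gene. Summed mesenchymal markers, mostly from Vim, were 1808 to 1853 CPM with lean, 1942 to 2014 with obese and 1793 to 1890 in control. Of the 4 tested, 2 were called lower with lean than with obese, where 17.4% of all genes were lower. Adipoq stayed at or below 0.0689 CPM in NMuMG. The part of these shifts in the results for the members was not tested.

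**Figure D3:**
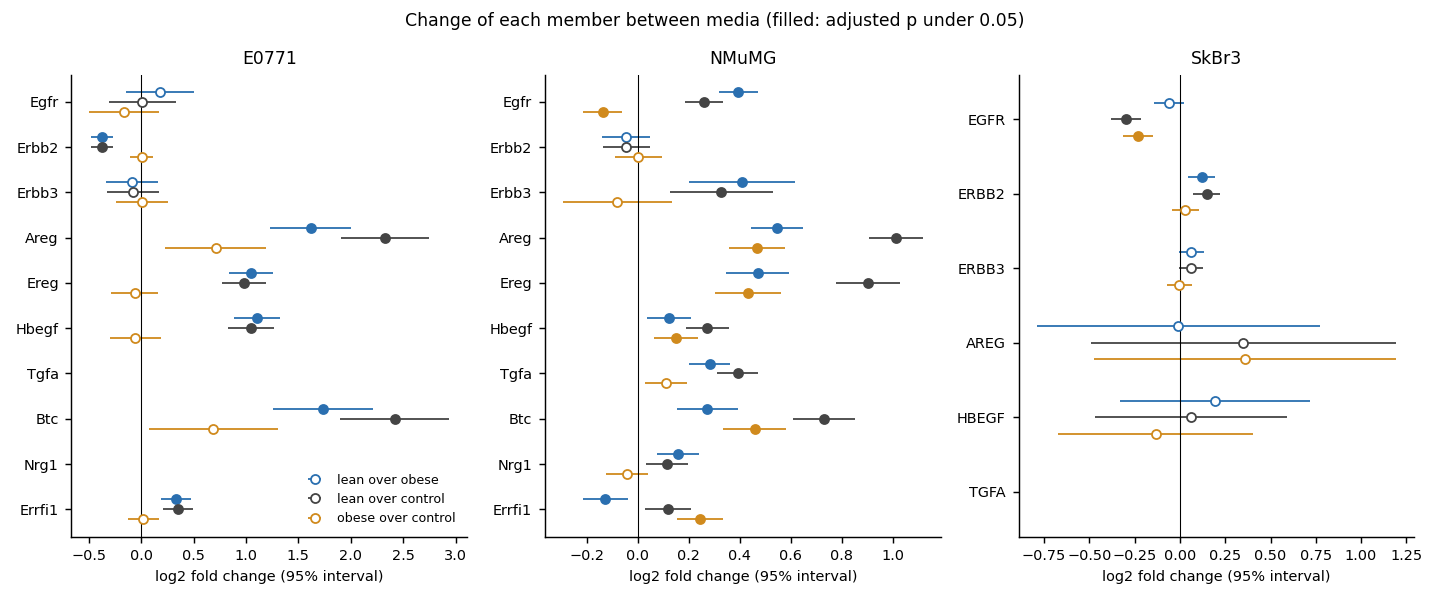
Log2 fold change of each member with its 95% interval between media in E0771, NMuMG and SkBr3, filled where the adjusted p was under 0.05 and blank rows where the gene was not tested. Ligand changes reach 2.42 in E0771 (Btc, lean over control) and 1.01 in NMuMG (Areg, lean over control). The horizontal scale differs between the 3 panels.

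The difference between the 2 mouse lines was tested directly. For lean over obese, 7 of 8 members passed, 5 with a higher and 2 with a lower change in E0771, where 34.2% of all genes passed. The differences of log2 fold changes were 1.47 for Btc (SE 0.20, adjusted p = 2.25e-07), 1.08 for Areg (SE 0.16, adjusted p = 1.16e-06), 1.00 for Hbegf (SE 0.10, adjusted p = 1.26e-10) and 0.60 for Ereg (SE 0.14, adjusted p = 0.00141). These 4 ligands thus rose in both lines, and by a larger fold in E0771, the line with the lower control level. Fold changes are compared here, not differences in CPM. The Hbegf call in NMuMG was lost without any 1 of 4 libraries. Tgfa and Nrg1 were left out of this test because neither passed the filter on low counts in E0771. Their E0771 control and obese groups were at 0, where a fitted fold change depends on the prior count.

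Errfi1 and Erbb2 differed between the lines in another way. Errfi1 was higher with lean than with obese in E0771 and lower in NMuMG, a difference of 0.47 (SE 0.08, adjusted p = 1.01e-05). Erbb2 fell in E0771 and did not pass in NMuMG, a difference of -0.31 (SE 0.07, adjusted p = 0.000429). The Erbb3 difference of -0.48 (SE 0.16, adjusted p = 0.0155) was lost without E0771 lean replicate 3 (adjusted p = 0.0512) or E0771 obese replicate 2 (adjusted p = 0.0719). For Egfr it was -0.20 (95% interval -0.47 to 0.06, adjusted p = 0.259), and without E0771 obese replicate 3 it was -0.35 (adjusted p = 0.0392).

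Against control medium, 5 of 8 members passed, 4 with a higher and 1 with a lower change in E0771, where 34.5% of all genes passed. The differences were 1.72 for Btc (SE 0.23, adjusted p = 1.35e-07), 1.33 for Areg (SE 0.19, adjusted p = 3.02e-07), 0.80 for Hbegf (SE 0.10, adjusted p = 1.61e-08), 0.26 for Errfi1 (SE 0.08, adjusted p = 0.0117) and -0.30 for Erbb2 (SE 0.07, adjusted p = 0.000608). That of Errfi1 was 0.16 (adjusted p = 0.0924) without E0771 lean replicate 3. The Egfr difference of -0.22 (adjusted p = 0.192) was -0.34 (adjusted p = 0.0476) without E0771 control replicate 1. For Erbb3 it was -0.38 (SE 0.16, adjusted p = 0.0552), and it passed with DESeq2 size factors (-0.40, adjusted p = 0.0470) and without E0771 lean replicate 1, NMuMG control replicate 2 or NMuMG lean replicate 2 (adjusted p = 0.0176 to 0.0441). The Ereg difference here was 0.11 (95% interval -0.17 to 0.39, adjusted p = 0.612). The 2 lines also differed in medium, which cannot be told apart from the line.

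Between obese secretome and control medium the 2 mouse lines gave different counts of calls. In E0771 none of the 8 members tested passed in edgeR, 2 had an unadjusted p under 0.05 (Areg and Btc) and DESeq2 called 0, where 2.61% of all genes passed. Areg was 0.71 higher (SE 0.24, adjusted p = 0.117) with no overlap between the libraries, and Btc 0.69 higher (SE 0.30, adjusted p = 0.258) with overlap. Without control replicate 3, Btc was 1.15 higher (adjusted p = 0.0425). In NMuMG, 6 of 10 passed, 5 higher (Areg, Ereg, Hbegf, Btc and Errfi1) and Egfr lower, where 5.01% of all genes passed. Hbegf was 0.15 higher (SE 0.04, adjusted p = 0.0272), a call lost without control replicate 1 or 2 or obese replicate 1 or 3 (adjusted p = 0.0600 to 0.197).

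The difference of this effect between the lines did not pass for any of the 8 members in edgeR, with 2 at an unadjusted p under 0.05 (Ereg and Errfi1) and 1.69% of all genes passing. Ereg stood at -0.49 (SE 0.15, adjusted p = 0.106). It passed in DESeq2 (-0.48, adjusted p = 0.0199), with no filter on low counts (adjusted p = 0.000242) and on leaving out E0771 control replicate 1, E0771 obese replicate 1 or NMuMG obese replicate 2 (adjusted p = 0.0103 to 0.0226). Areg, which rose with obese secretome in NMuMG, had a difference of 0.25 (95% interval -0.21 to 0.71).

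In SkBr3 the receptors examined were abundant and the ligands examined, AREG, HBEGF and TGFA, were nearly absent. Other human ligand genes were not looked at. Of the 6 human members 5 were tested, and TGFA, at 0 to 3 counts per library, was not. Between lean and obese secretome 1 of 5 passed (44.1% of all genes), for lean against control 2 (48.8%) and for obese against control 1 (1.16%). AREG was at 0.219 to 0.638 CPM in control, 0.362 to 0.763 in obese and 0.270 to 0.635 in lean, and HBEGF at 0.607 to 1.20, 0.706 to 1.19 and 0.929 to 1.08. All groups of both overlapped. Lean over obese was -0.01 for AREG (95% interval -0.79 to 0.77) and 0.19 for HBEGF (95% interval -0.33 to 0.72), measured at 4 to 31 counts per library. Changes as small as that of Hbegf in NMuMG were not detectable at this depth. In E0771 the mouse values were 1.62 for Areg (95% interval 1.23 to 2.00) and 1.11 for Hbegf (95% interval 0.89 to 1.33). The upper bounds of SkBr3 lie below these intervals, but a difference between the species was not tested.

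ERBB2 was at 7075, 7131, 7248 and 6989 CPM in control, 7348, 7305, 7101 and 7267 in obese and 7631, 7729, 7545 and 8633 in lean secretome. It took 0.691% to 0.877% of all counts of a library. The lean libraries were above all others, by 0.12 on the log2 scale over obese (SE 0.04, adjusted p = 0.00945) and by 0.15 over control (SE 0.04, adjusted p = 0.00152). Lean replicate 4 stood apart from the other lean libraries, and without it lean over obese was 0.07 (adjusted p = 0.0578) and lean over control 0.10 (adjusted p = 0.00768).

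EGFR fell with both secretomes. It was at 230.0, 233.6, 226.3 and 239.0 CPM in control, 189.3, 211.0, 196.5 and 193.2 in obese and 180.7, 201.1, 190.3 and 184.5 in lean. Every control library was above every other, and EGFR fell by 0.30 with lean (SE 0.04, adjusted p = 2.88e-06) and by 0.23 with obese (SE 0.04, adjusted p = 0.00583) against control, which held no secretome. Lean and obese overlapped (-0.06, 95% interval -0.15 to 0.02, adjusted p = 0.221). ERBB3, the usual partner of ERBB2, was at means of 245 CPM in control, 245 in obese and 256 in lean, with lean over obese at 0.06 (95% interval -0.00 to 0.13, adjusted p = 0.122). The human and mouse tables were counted separately, so no test was made between species.

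**Figure D4:**
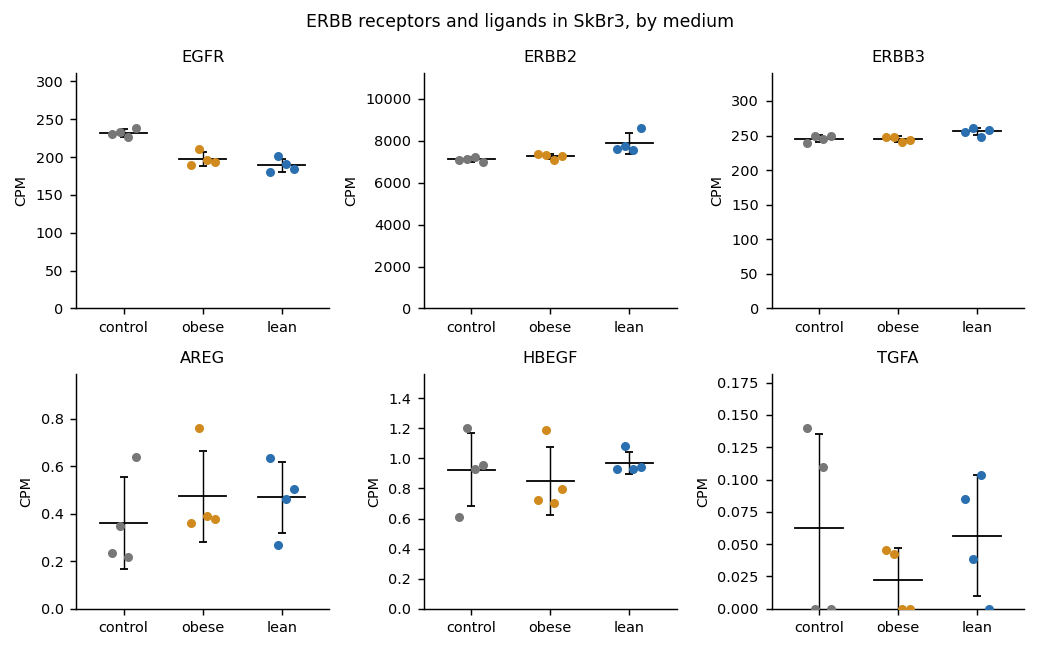
CPM of the 6 human members in each SkBr3 library by medium, with the mean as a line and the SD as error bars (n = 4). The 4 control libraries of EGFR lie above all others, ERBB2 replicate 4 with lean secretome is the highest at 8633 CPM, and AREG, HBEGF and TGFA are near 0. The scale differs between panels.

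Other genes of the pathway were counted in lists by role. Of the remaining ligands and receptor (Egf, Epgn, Nrg2, Nrg3, Nrg4 and Erbb4), only Egf and Nrg2 were tested, and neither passed between lean and obese secretome in edgeR in a mouse line, 0 of 2 also at an unadjusted p under 0.05. The list of proteases that release ligands also held their carriers and the inhibitor Timp3. Of this list, 4 of 8 tested passed in E0771, 2 higher and 2 lower, a share near the 52.7% of all genes. They included Adam17, the main sheddase of Areg, Tgfa and Hbegf, at 0.24 (SE 0.04, adjusted p = 3.72e-05) and the rhomboid protease gene Rhbdl2 at 0.92 (SE 0.11). In NMuMG 5 of 10 passed, 4 higher and 1 lower, where 35.0% of all genes passed, led by the protease inhibitor Timp3 at 0.66 (SE 0.08, adjusted p = 0.000283). Rhbdf2, whose product carries Adam17 to the cell surface, passed in both lines with opposite signs, -0.55 in E0771 (SE 0.08) and 0.14 in NMuMG (SE 0.05, adjusted p = 0.0353).

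Among 20 genes for receptor brakes and trafficking, 9 of 18 tested passed in E0771 (4 higher and 5 lower) and 7 of 20 in NMuMG (5 higher and 2 lower). Both shares lie close to the 52.7% and 35.0% over all genes, so the counts say nothing about this list. Nedd4, a ubiquitin ligase, was the largest in E0771 at -0.42 (SE 0.03) and also passed in NMuMG at -0.07 (SE 0.03, adjusted p = 0.0369). Cblc, of the Cbl ubiquitin ligases that mark Egfr for breakdown, was the largest in NMuMG at 1.17 (SE 0.40, adjusted p = 0.0193). Cd82, a tetraspanin, went down in E0771 (-0.39, SE 0.11, adjusted p = 0.00462) and up in NMuMG (0.69, SE 0.06). The endosomal sorting gene Hgs was higher with lean in both (0.28 and 0.16), and the Cbl adaptor gene Sh3kbp1 lower in both (-0.18 and -0.22).

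Among 23 adaptors and first signal relays, 13 of 22 tested passed in E0771 (6 higher and 7 lower) and 3 of 23 in NMuMG (2 higher and 1 lower), or 59.1% and 13.0% beside the 52.7% and 35.0% over all genes. Mapk3, which encodes the kinase ERK1, fell by 0.90 in E0771 (SE 0.06), and Eps8, an Egfr substrate, rose by 0.27 in NMuMG (SE 0.04). Shc1 (-0.19 in E0771 and 0.16 in NMuMG) and Ptpn11 (0.12 and -0.11) passed in both with opposite signs. The median log2 fold changes of the protease, brake and adaptor lists were -0.04, 0.02 and -0.00 in E0771 and 0.10, -0.01 and -0.00 in NMuMG, beside 0.00 for all genes in both lines.

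**Figure D5:**
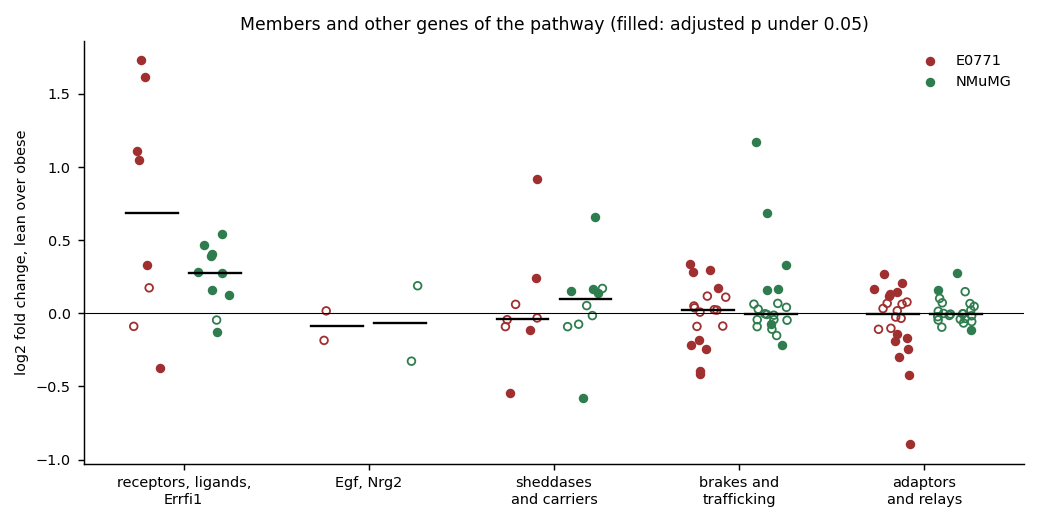
Log2 fold change of lean over obese secretome for each tested gene of the member group and of 4 other pathway lists in E0771 and NMuMG, filled where the adjusted p was under 0.05, with a line at each median. The members have medians of 0.69 in E0771 and 0.28 in NMuMG, and the medians of the other lists lie between -0.08 and 0.10.

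The genes most like selected members were ranked by Pearson r of log2 CPM over the 9 libraries of a line, given as a description because 3 media and 3 libraries per medium make high values common. The receptor and the ligand with the largest change of lean over obese in each line, and Errfi1, were used. In E0771 Erbb2 was most like Tulp4 (0.994), the adaptor gene Nck1 (0.992) and Ctdspl (0.990), Btc like Tomm34, Faf1 and Wdr46 (each 0.985) and Errfi1 like Xrcc2 (0.993), Jtb (0.988) and Smcr8 (0.984). In NMuMG Areg was most like Dusp5 (0.997), a phosphatase gene of the ERK pathway, Ptgs2 (0.996), which encodes cyclooxygenase-2, and Ankrd50 (0.995). Erbb3 was most like Coq8b (0.975), Agpat3 (0.975) and Stard3 (0.974), and Errfi1 like Cttnbp2nl (0.958), Rasa1 (0.949) and Sprr2h (0.939).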

How the data were processed

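The authors deposited raw counts per Ensembl gene ID, 1 human and 1 mouse table, whose values are whole numbers with unequal library totals. Per the submitters' processing notes the tools were cutadapt 1.16, STAR 2.7.9a and featureCounts 1.6.3. The notes list the mouse build GRCm39 for every sample, the human ones included. The annotation release, the strand setting and the human build are not given in the sources used here. The libraries were directional and poly(A) selected, per the labels' protocols.

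Libraries were grouped by line and medium from the labels. Mouse symbols came from GENCODE M21 names, which matched 52073 of 56980 IDs, and human members were found by Ensembl ID. A planned list of human genes near ERBB2 was not analysed here. The members, the lists and the motifs were chosen with earlier results of these data known.

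Each line was fitted alone with its 3 media in edgeR 4.0.16 (R 4.3.3): filterByExpr, TMM factors, robust dispersions and a robust quasi-likelihood F test, which left 13813 genes in E0771, 15014 in NMuMG and 14874 in SkBr3. P-values were adjusted over all genes of a contrast by the Benjamini-Hochberg method, and those with an adjusted p under 0.05 count as called. The 2 mouse lines were compared in 1 fit of 18 libraries (16529 genes), with the difference between lines as an interaction. Standard errors came from the F statistic, and intervals are 95%. The code was tested on simulated data. For lean over obese, the standard error of log2 fold changes had a median of 0.0720 in E0771, 0.0708 in NMuMG and 0.0759 in SkBr3. Intervals cover counting and replicate spread only, since reads carried no molecular identifiers. Floors put 3 counts in the group at 0 and take the other group's count as it stands, without its counting or replicate spread. Other pathway genes were named where called in both mouse lines or largest in their list in 1 line, and members named as examples beyond this (Adam17) were chosen after their values were seen. Likeness was ranked among genes whose log2 CPM (prior count 2) averaged 2 or more. The alternatives were DESeq2 1.42.0, its size factors in edgeR, no filter on low counts, only the groups compared, a threshold of 0.01, a replicate block and each library left out in turn.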

Additional observations from a re-analysis of the deposited data

Results flagged for a closer look

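In SkBr3, 3 of the 15 groups of 4 libraries had 1 library farther from the others than Dixon's 95% critical value for 4 libraries allows, a gap that chance gives in about 1 in 20 groups. ERBB2 stood at 8633 CPM in lean replicate 4, AREG at 0.763 CPM in obese replicate 2 and HBEGF at 1.08 CPM in lean replicate 2. The AREG and HBEGF values rest on 18 and 28 counts.

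The change from obese to lean secretome differed between E0771 and NMuMG by the interaction test for 7 members. The differences of log2 fold changes, E0771 minus NMuMG, were -0.31 for Erbb2, -0.48 for Erbb3, 1.08 for Areg, 0.60 for Ereg, 1.00 for Hbegf, 1.47 for Btc and 0.47 for Errfi1. For lean against control medium, 5 members differed, with -0.30 for Erbb2, 1.33 for Areg, 0.80 for Hbegf, 1.72 for Btc and 0.26 for Errfi1.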

How the results depend on the processing

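Of 1284 fold changes of members under the alternatives, 1241 kept their side of the threshold, 29 lost the call, 14 gained it and 0 called values reversed. The sign changed in 37, all of results that had not passed. At a threshold of 0.01 instead of 0.05, 8 calls were lost: for lean over obese in NMuMG those of Hbegf and Errfi1, for lean over control Nrg1 and Errfi1, for obese over control Egfr and Hbegf, and the interactions of Erbb3 for lean over obese and of Errfi1 for lean over control. Leaving out 1 library at a time, the number of members called for lean over obese, lean over control and obese over control was 6 to 7, 6 to 6 and 0 to 1 in E0771, 7 to 8, 7 to 8 and 4 to 6 in NMuMG and 0 to 1, 2 to 2 and 1 to 1 in SkBr3. The interactions gave 6 to 8, 4 to 6 and 0 to 1, and the controls of the 2 mouse lines 7 to 8. For obese over control the interaction count went from 0 to 1 (Ereg) with no filter on low counts and in DESeq2, and the cause was not tested. Genes whose call depended on 1 library are given with their results. Same-numbered libraries of different media had residual correlations from -0.0942 to 0.110 in E0771, -0.0285 to 0.0250 in NMuMG and -0.0452 to 0.0523 in SkBr3, and 5 of 9, 4 of 9 and 1 of 12 libraries correlated best with their own number. The numbers were not taken as pairs, and with the replicate block every count was that of the fit without it (6, 6 and 0 in E0771, 9, 9 and 6 in NMuMG, 1, 2 and 1 in SkBr3, 7, 5 and 0 for the interactions and 7 for the controls). Depth limits AREG, HBEGF and TGFA in SkBr3 and Areg, Btc and Nrg1 in E0771.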
